A study of Homo sapiens with 8 samples.

Results

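The genes described here are 10 feedback genes of the RAS-ERK pathway, namely the MAPK phosphatases DUSP4, DUSP5 and DUSP6, the Sprouty genes SPRY1, SPRY2 and SPRY4, the Spred genes SPRED1 and SPRED2, and the PEA3-family ETS factors ETV4 and ETV5. They were chosen by gene symbol, and all 10 were listed in both expression tables, which hold 34164 genes between them and share 26360. RNA was sequenced from Kyse510, an established human esophageal squamous cell carcinoma line, in 8 libraries, and each condition is a single library. The inhibitor arm compared vehicle (DMSO) with SP2509, an inhibitor of the histone demethylase LSD1, UNC0642, an inhibitor of the histone methyltransferase G9a, and both inhibitors together, after 2 days. Each inhibitor was used at 7 μM, and no separate dose was given for the combination. The shRNA arm used stable lines in which doxycycline (Dox) turns on a hairpin against LSD1 (shLSD1) or G9a (shG9a), picked over 14 days of puromycin and harvested without Dox or after 2 days with it. Each silenced line rests on 1 hairpin, and its only control here was the same line without Dox, so that an effect of Dox itself or of the hairpin cannot be told apart from silencing of the enzyme.

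The ERK kinases transmit signals from growth factor receptors through RAS, RAF and MEK to the nucleus. ERK activity induces genes whose products dampen the same pathway: dual-specificity phosphatases remove phosphate from ERK, while Sprouty and Spred proteins act upstream at the level of RAS and RAF. ETV4 and ETV5 are transcription factors that are also induced through ERK, and the levels of all these transcripts are widely used as a readout of pathway output. The readout here is RNA only, and neither ERK phosphorylation nor any protein was measured in these libraries.

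The promoters of 6 of the 10 genes were matched by symbol in RefSeq (GRCh38.p14), and 3 are printed here because DUSP6, SPRY2 and SPRY4 are those of the 6 that were called higher than vehicle in all 3 inhibitor comparisons. Some genes have several annotated starts, and the 6 have 10 windows in all. Each line gives the 250 bases before a start on the gene's own strand, 5′ to 3′, and capitals mark the ETS core CCGGAA.
DUSP6 (chr12:89352502-89352751, minus strand): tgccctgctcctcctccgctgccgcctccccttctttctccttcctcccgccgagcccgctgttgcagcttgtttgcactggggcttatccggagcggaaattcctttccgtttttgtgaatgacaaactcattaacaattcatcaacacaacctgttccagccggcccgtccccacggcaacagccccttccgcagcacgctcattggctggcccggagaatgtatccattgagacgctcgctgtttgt
SPRY2 (chr13:80341127-80341376, minus strand): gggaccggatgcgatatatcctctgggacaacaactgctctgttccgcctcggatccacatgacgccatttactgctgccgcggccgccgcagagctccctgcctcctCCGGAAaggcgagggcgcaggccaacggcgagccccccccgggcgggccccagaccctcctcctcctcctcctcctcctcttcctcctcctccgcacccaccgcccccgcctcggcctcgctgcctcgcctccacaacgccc
SPRY4 (chr5:142324248-142324497, minus strand): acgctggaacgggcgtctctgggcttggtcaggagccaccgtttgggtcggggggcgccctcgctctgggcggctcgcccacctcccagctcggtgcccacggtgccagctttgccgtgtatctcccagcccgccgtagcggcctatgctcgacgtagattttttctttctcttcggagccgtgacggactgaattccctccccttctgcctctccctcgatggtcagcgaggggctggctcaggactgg
The core, searched on both strands, was found in 14.5% of 35116 promoter windows of this length, and in 2 of the 10 windows of the 6 genes, namely the SPRY2 window printed, with its first base 142 bases before that start and not in the other windows of SPRY2, and a window of SPRY1, at 67 bases before its start. The AP-1 motif TGANTCA, present in 6.57% of all windows, and the cyclic AMP response element TGACGTCA, present in 1.65%, were found in none of the 6 genes. In the deposited annotation (GRCh38), DUSP6 lies at chr12:89347232-89353271, SPRY2 at chr13:80335976-80340951 and SPRY4 at chr5:142310427-142326455, so the RefSeq windows of DUSP6 and SPRY4 fall inside the deposited bounds of these genes. The matches describe the letters of the window, and no binding was measured.

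Values are FPKM, which are reads on a gene scaled by the length of the gene and by the total of the library. Library totals, recovered from the FPKM values, lay between 15662035 and 17889466 reads. With 1 library per condition, no spread between replicates was available and no condition could be tested against another. A gene was therefore called higher or lower when its FPKM + 1 differed at least 1.3-fold between the treated library and its own control, its FPKM reached at least 1 in either library, and its reads differed at an unadjusted p under 0.05 by an exact binomial test (two-sided). Ratios are of FPKM and are given with a 95% interval derived from the exact Clopper-Pearson interval. Test and interval compare 2 libraries and cover counting error only. In bulk RNA, a change in the number of cells of a kind cannot be told apart from a change in RNA per cell.

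The silenced genes and the cell type were checked first. KDM1A, which encodes LSD1, fell with Dox in the shLSD1 line, 26.0 to 6.29 FPKM, a 4.13-fold decrease. EHMT2, which encodes G9a, fell with Dox in the shG9a line, 7.85 to 4.76 FPKM, a smaller decrease of 1.65-fold. EHMT2 was also called lower with both inhibitors, 11.1 to 5.38 FPKM, a 2.07-fold decrease (1.88 to 2.27). Neither gene was called with SP2509 or UNC0642 alone. In the shG9a line KDM1A also rose, from 26.4 to 35.8 FPKM. All 6 squamous markers exceeded 1 FPKM in at least 1 library, with a summed level between 394 and 4593 FPKM, and single markers moved with the treatments. KRT5 and KRT17 were the most abundant of them in every library. KRT6A was only 0.676 FPKM in vehicle and 20.0 with UNC0642, and KRT14 lay between 1.10 and 10.1 FPKM. KRT17 was 324 FPKM in vehicle, 3716 with SP2509, 806 with UNC0642 and 594 with both, and with Dox shLSD1 cells went from 1738 to 265 FPKM and shG9a cells from 1596 to 158 FPKM, the same directions as DUSP5. SOX2 ran the other way, from 18.3 FPKM in vehicle to 0.313 FPKM with SP2509 and from 5.99 to 38.8 FPKM with Dox in the shG9a line. Leukocyte markers summed to at most 0.338 FPKM and glandular markers to at most 0.145 FPKM, with no gene of either list over 1 FPKM. Of the other lists, COL1A1 and COL3A1 among fibroblast markers and CDH5 and VWF among endothelial markers passed 1 FPKM somewhere, with sums of 3.20 to 6.91 and 3.56 to 14.5 FPKM. CDH5 was highest with both inhibitors, at 11.8 FPKM, and in the induced shLSD1 line, at 14.0 FPKM. The part of these markers in the results below was not tested.

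Libraries that received neither inhibitor nor Dox were compared with each other, since they set the scale of every ratio. Between the uninduced lines, 92.4% of 12449 genes lay within 1.3-fold of each other on FPKM + 1, and so did all 10 feedback genes. Vehicle stood apart from both lines. Relative to vehicle, the uninduced shLSD1 and shG9a lines held 1.92 and 1.91 times as much DUSP4, 1.58 and 1.71 times as much SPRY1 and 7.63 and 7.82 times as much DUSP5. Vehicle in turn held 3.40 and 2.61 times as much ETV5 and 1.55 and 1.47 times as much SPRED2. Levels of the arms were deposited in separate tables, and solvent, vector and table cannot be told apart in these differences.

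Most of the feedback genes were called higher with UNC0642 and with both inhibitors and lower when G9a was silenced, with fewer calls for SP2509 and shLSD1. SP2509 raised 5 and lowered 1 of the 10, where 18.2% of the 13342 genes tested were called higher and 37.5% lower. UNC0642 raised all 10, where 15.8% of 13244 genes were called higher and 14.0% lower. The combination raised 8 and lowered 1, where 29.0% of 13907 genes were called higher and 29.1% lower. In the shLSD1 line 8 of the 10 passed the FPKM filter, and Dox raised 1 and lowered 2 of them, where 22.7% of 12970 genes were called higher and 10.4% lower. In the shG9a line 9 passed, and Dox raised none and lowered 8, where 30.0% of 13080 genes were called higher and 15.8% lower. The 3 inhibitor comparisons share the vehicle library, so their calls do not stand apart from each other.

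On the log2 scale of FPKM + 1, the median change of the 10 genes was 0.59 with SP2509, 0.99 with UNC0642, 1.64 with both, -0.15 in the shLSD1 line and -0.88 in the shG9a line. The medians of all genes tested were -0.21, -0.01, -0.02, 0.13 and 0.18 in the same order. The shift of all genes was thus opposite in sign to that of the 10 genes in each of the 5 comparisons. Among genes of at least 5 FPKM, whose medians were -0.09, 0.00, 0.04, 0.11 and 0.14, centring on that median left the calls of the 10 genes as they were in the inhibitor comparisons and the shG9a line and, in the shLSD1 line, removed the single higher call and added SPRY1 (log2 change -0.46) to the lower calls. DUSP4, DUSP5, DUSP6, SPRY2 and SPRY4 were called higher in all 3 inhibitor comparisons. The induced shG9a library held the lowest level of the 8 for all 10 genes. Counted against all 3 untreated libraries, every inhibitor library was higher for DUSP4, DUSP6, SPRY2, SPRY4 and SPRED2. For DUSP5, SPRED1, ETV4 and ETV5, 2 of the 3 inhibitor libraries were higher.

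**Figure D1:**
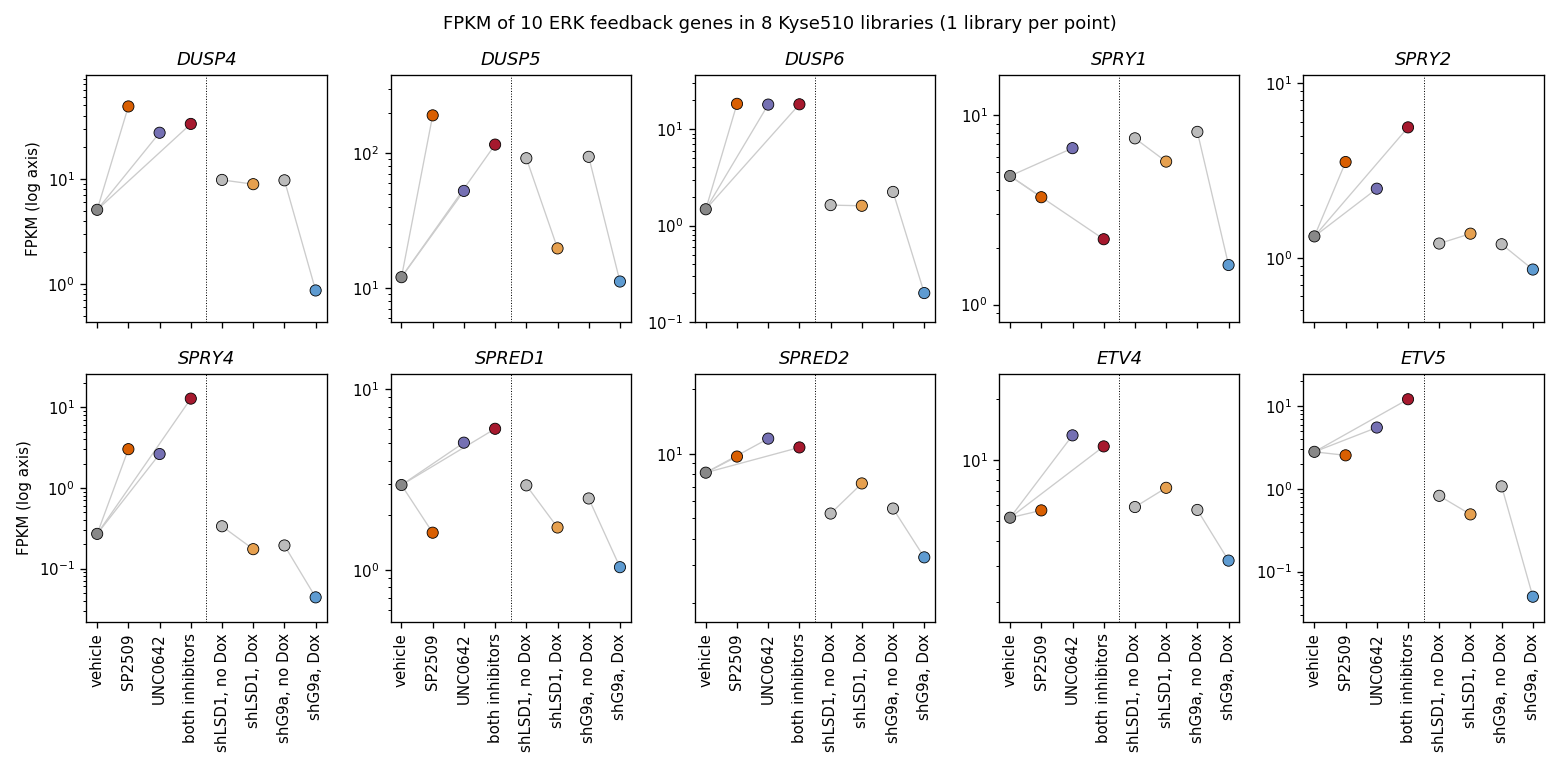
FPKM of the 10 genes on log axes, 1 panel per gene and 1 point per library, with grey lines joining each treated library to its own control and a dotted line between the inhibitor arm and the shRNA arm. DUSP6 sat at about the same level with SP2509, UNC0642 and both inhibitors (18.3, 18.0 and 18.1 FPKM), and the induced shG9a library was the lowest for all 10 genes.

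All 3 MAPK phosphatases were raised by each inhibitor and lowered by shG9a. DUSP6, a cytoplasmic phosphatase selective for ERK, was 1.47 FPKM in vehicle, 18.3 with SP2509, 18.0 with UNC0642 and 18.1 with both inhibitors. The ratios to vehicle were 12.4 (95% interval 10.2 to 15.2), 12.2 and 12.3 (10.1 to 15.1), with overlapping intervals. The 3 inhibitor libraries thus held about the same level, and adding the second inhibitor gave a ratio of 0.989 to the higher single inhibitor (0.919 to 1.06). In the shLSD1 line DUSP6 was 1.63 FPKM without and 1.60 with Dox, a ratio of 0.984 (0.767 to 1.26). Dox took it from 2.23 to 0.199 FPKM in shG9a cells, or from 171 to 16 reads, which is 11.2-fold lower (6.70 to 20.0). All 3 inhibitor libraries lay above, and the induced shG9a library lay below, the 3 untreated libraries.

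DUSP4 and DUSP5 are nuclear phosphatases, of which DUSP5 is selective for ERK. DUSP4 was 5.08 FPKM in vehicle, 48.9 with SP2509, 27.5 with UNC0642 and 33.3 with both, or 9.63-fold (8.84 to 10.5), 5.41-fold (4.95 to 5.92) and 6.57-fold (6.02 to 7.18) higher. The combination was below SP2509 alone, at a ratio of 0.682 (0.655 to 0.709). In the shG9a line DUSP4 fell from 9.69 to 0.867 FPKM, 11.2-fold (9.17 to 13.7), whereas in the shLSD1 line it was 9.77 FPKM without and 8.90 with Dox and was not called. DUSP4 was thus called in only 1 of the silenced lines.

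DUSP5 was 12.0 FPKM in vehicle, 191 with SP2509, 52.6 with UNC0642 and 116 with both inhibitors. It rose 15.9-fold with SP2509 (14.5 to 17.4), 4.37-fold with UNC0642 (3.96 to 4.82) and 9.63-fold with both (8.78 to 10.6). DUSP5 was the most abundant of the 10 genes in all 8 libraries, and it was also the gene in which the untreated libraries differed most. Without Dox it was 91.9 FPKM in the shLSD1 line and 94.1 FPKM in the shG9a line, far above the level in vehicle. The level with UNC0642 was above vehicle but below both uninduced lines, and against the mean of the 3 untreated libraries, a control chosen after seeing the data, its log2 change was -0.32. Dox lowered DUSP5 to 19.7 FPKM in the shLSD1 line, 4.67-fold (4.34 to 5.02), and to 11.2 FPKM in the shG9a line, 8.42-fold (7.68 to 9.26). With Dox, shG9a cells thus held about as much DUSP5 as vehicle cells, a level set across separate tables.

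**Figure D2:**
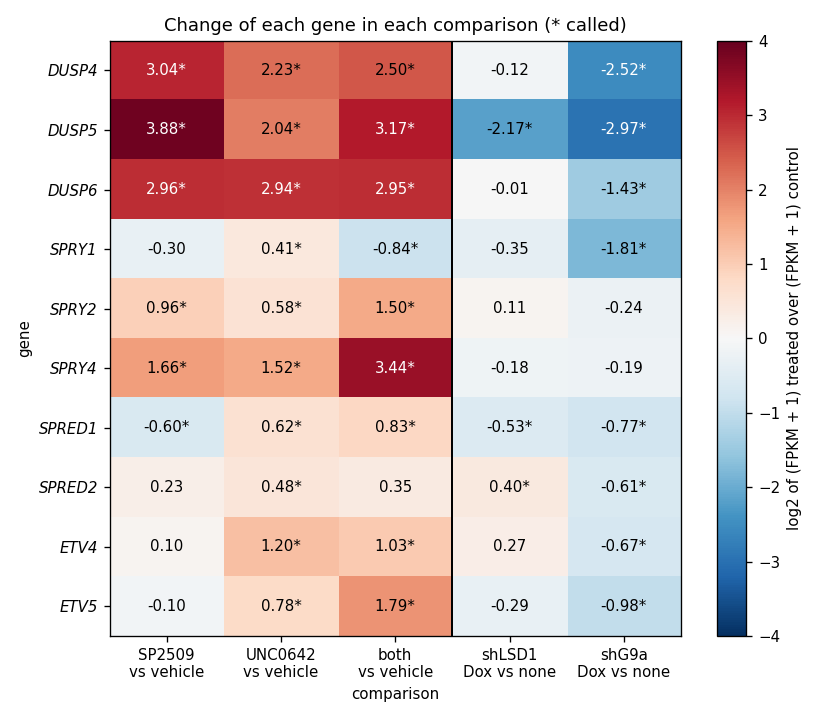
Log2 of the ratio of FPKM + 1, treated library over its own control, for the 10 genes (vertical) in the 5 comparisons (horizontal), coloured from blue (lower) to red (higher), with an asterisk on each called value. All 10 values in the UNC0642 column are called higher and 8 values in the shG9a column are called lower, whereas the shLSD1 column holds 3 calls.

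The Sprouty genes did not move together. SPRY4, an inhibitor of RAS activation by receptors, had 0.269 FPKM (25 reads) in vehicle, 3.02 with SP2509, 2.63 with UNC0642 and 12.8 (1280 reads) with both inhibitors. It rose 11.2-fold (7.47 to 17.6), 9.77-fold (6.48 to 15.4) and 47.5-fold (32.0 to 73.7), and the wide intervals follow from the 25 reads in vehicle. The combination exceeded the higher single inhibitor 4.23-fold (3.74 to 4.80), the largest such ratio among the 10 genes. In the silenced lines SPRY4 stayed under the 1 FPKM filter and was not tested, at 0.335 FPKM (39 reads) without and 0.174 FPKM (20 reads) with Dox in the shLSD1 line, and at 0.193 FPKM (21 reads) and 0.0440 FPKM (5 reads) in the shG9a line. The lengths implied for SPRY4 were 5930 bases in the inhibitor table and 6565 bases in the shRNA table, so its FPKM values are on slightly different scales in the arms.

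SPRY2 was 1.32 FPKM in vehicle, 3.53 with SP2509, 2.48 with UNC0642 and 5.58 with both. The increases of 2.67-fold (2.00 to 3.60), 1.88-fold (1.38 to 2.57) and 4.21-fold (3.20 to 5.63) stood in the same order as in SPRY4, in which the intervals of the single inhibitors overlapped, with the combination 1.58-fold above SP2509 (1.31 to 1.91). Untreated libraries differed little in this gene, from 1.19 to 1.32 FPKM. SPRY2 was not called in either silenced line, with 1.21 FPKM without and 1.37 with Dox for shLSD1, a ratio of 1.14 (0.804 to 1.62), and 1.19 and 0.855 FPKM for shG9a, a ratio of 0.716 (0.476 to 1.07). At 45 to 73 reads in these 4 libraries, changes of this size were not detectable at this depth.

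SPRY1 differed in direction among the inhibitors. It was 4.77 FPKM in vehicle, 3.68 with SP2509, 6.69 with UNC0642 and 2.21 with both. UNC0642 raised it 1.40-fold (1.21 to 1.63), the combination lowered it 2.16-fold (1.76 to 2.64), and SP2509, at a ratio of 0.773 (0.652 to 0.916), was not called. SPRY1 was the only one of the 10 genes called lower with both inhibitors. No inhibitor library lay above all 3 untreated libraries for SPRY1, since the uninduced lines held 7.53 and 8.15 FPKM, and against the mean of the 3 untreated libraries UNC0642 gave a log2 change of -0.02. In the shG9a line it fell 5.04-fold (4.10 to 6.24), to 1.62 FPKM, and in the shLSD1 line it was 5.68 FPKM with Dox, a ratio of 0.754 (0.660 to 0.860), and not called, although a pseudocount of 0.1 made it a lower call (log2 change -0.40).

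SPRED1 and SPRED2, which bind RAS-pathway components at the membrane, were called in opposite directions in the shLSD1 line. SPRED1 was 2.95 FPKM in vehicle, 1.60 with SP2509, 5.05 with UNC0642 and 6.02 with both inhibitors. It was the only one of the 10 genes that SP2509 lowered, 1.84-fold (1.56 to 2.17), while UNC0642 raised it 1.71-fold (1.51 to 1.94) and the combination 2.05-fold (1.81 to 2.31). In both silenced lines it fell, from 2.93 to 1.71 FPKM with shLSD1 (1.71-fold, 1.46 to 2.01) and from 2.48 to 1.03 FPKM with shG9a (2.40-fold, 1.97 to 2.93). SP2509 and shLSD1 were thus both called lower for SPRED1, and the ratios of SPRY1 were also below 1 in both without a call.

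SPRED2 was 8.15 FPKM in vehicle, 9.70 with SP2509, 11.8 with UNC0642 and 10.7 with both. Only UNC0642 gave a call, at 1.44-fold (1.31 to 1.59). The combination, at 1.31-fold (1.19 to 1.45) on FPKM, missed the fold threshold on the FPKM + 1 scale and passed it with a pseudocount of 0.1 (log2 change 0.39). With Dox, SPRED2 rose 1.38-fold (1.23 to 1.56) in the shLSD1 line, where it was 5.25 FPKM before and 7.26 FPKM after, and it fell 1.69-fold (1.46 to 1.97) in the shG9a line, where it was 5.54 and 3.27 FPKM. It was the single gene of the 10 called higher in a silenced line, and that call was lost when the values were centred on the median of genes of at least 5 FPKM (log2 change 0.29) or when the mean of both uninduced lines was the control (0.37).

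ETV4 and ETV5 were raised by UNC0642 and by the combination and were not called with SP2509. ETV4 was 5.19 FPKM in vehicle, 5.64 with SP2509, 13.2 with UNC0642 and 11.7 with both, that is 1.09-fold (0.929 to 1.27), 2.55-fold (2.23 to 2.92) and 2.25-fold (1.96 to 2.58) the vehicle level. In the shG9a line it fell from 5.67 to 3.19 FPKM, 1.78-fold (1.49 to 2.13). In the shLSD1 line it was 5.86 FPKM without and 7.28 FPKM with Dox, which was not called. ETV4 overlaps DHX8, on the opposite strand at chr17:43483865-43544463, which was measured at 5.13 to 10.9 FPKM, and since it is not given in the sources used here whether reads were counted by strand, the reads of the overlap cannot be told apart.

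ETV5 was 2.81 FPKM in vehicle, 2.55 with SP2509, 5.52 with UNC0642 and 12.1 with both inhibitors. The combination raised it 4.32-fold (3.77 to 4.97) over vehicle and 2.20-fold (1.99 to 2.43) over UNC0642, although SP2509 alone stood at a ratio of 0.907 (0.761 to 1.08). The uninduced lines held less of it than vehicle, 0.825 and 1.07 FPKM. With Dox in the shG9a line it dropped from 103 to 5 reads, or from 1.07 to 0.0498 FPKM, which is 21.6-fold lower (8.95 to 67.8). In the shLSD1 line ETV5 was under the filter, with 85 reads without and 50 reads with Dox.

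Set against the higher single inhibitor, the combination was above it for SPRY2, SPRY4, SPRED1 and ETV5, below it for DUSP4, DUSP5, SPRY1, SPRED2 and ETV4, and not separable from it for DUSP6, by the 95% counting intervals. The genes above included SPRED1, at a ratio of 1.19 (1.08 to 1.32). DUSP5, at 0.607 (0.586 to 0.628), was among those below.

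The question the silenced lines address is whether loss of an enzyme resembles its inhibitor. For G9a, the 8 genes called lower with Dox were all called higher with UNC0642. Since UNC0642 raised all 10, this follows from the counts of each comparison and is no separate result. The share of all genes called in opposite directions was not counted. The remaining SPRY2 and SPRY4 were raised by UNC0642 and not called with Dox. For LSD1, DUSP5 was called in opposite directions with SP2509 and shLSD1, SPRED1 was lowered in both, and the other genes were called in at most 1 of these comparisons. The arms differ in vehicle, vector and agent, and the difference between an inhibitor and a knockdown could not be tested with 1 library each.

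**Figure D3:**
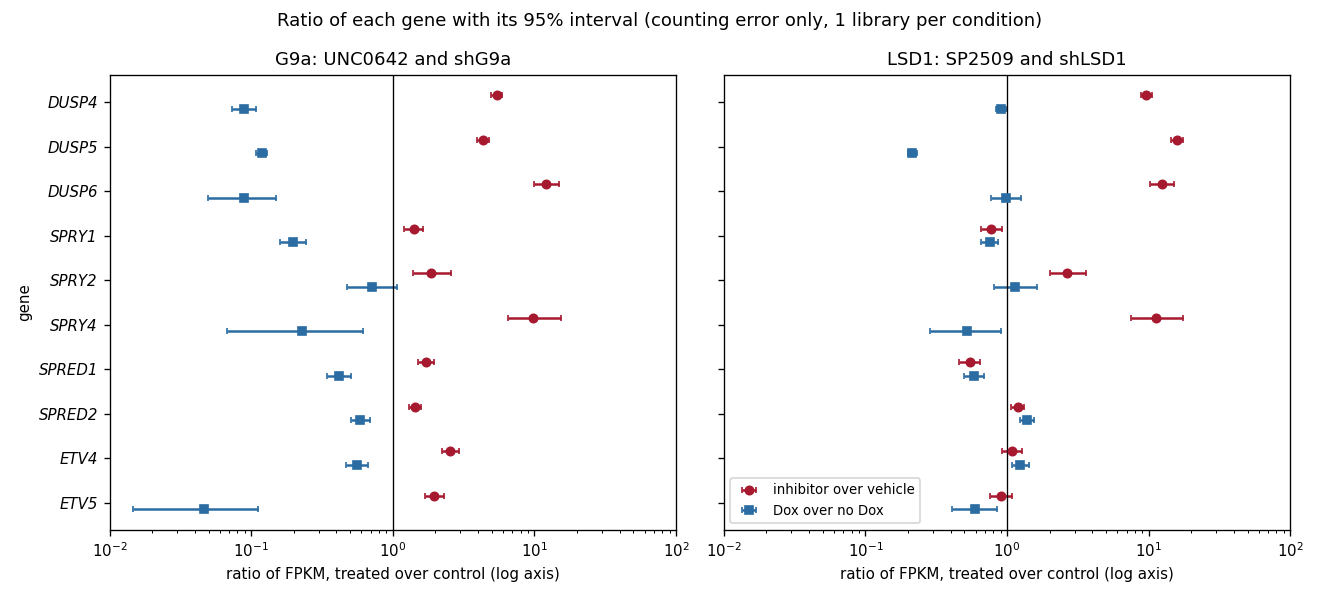
Ratio of FPKM, treated over control, on a log axis for the 10 genes, with UNC0642 and shG9a on the left and SP2509 and shLSD1 on the right. Circles are inhibitor over vehicle, squares are Dox over no Dox, and bars are 95% counting intervals. On the left all circles lie above 1 and all squares below it, whereas on the right DUSP5 alone shows calls on both sides of 1.

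Other genes of the pathway were summarised in lists, which were chosen with earlier results of these data known. Their counts stand beside the shares of all genes given above for each comparison. Of 20 genes of the RAS-ERK cascade itself, SP2509 raised 3 and lowered 5, UNC0642 raised 3 and lowered 2, the combination raised 3 and lowered 7, shLSD1 raised 4 and lowered 1, and shG9a raised 3 and lowered 3. The cascade had median log2 changes of -0.02, 0.05, -0.18, 0.10 and 0.01, nearer to the medians of all genes than those of the feedback genes were in each comparison. MAP2K1, which encodes the kinase MEK1, was 12.4 FPKM in vehicle and 44.1 with both inhibitors, and MAPK3, which encodes ERK1, fell from 11.5 to 4.20 FPKM. RRAS, a RAS-related GTPase, rose from 18.8 to 80.7 FPKM with SP2509 and fell from 93.6 to 24.9 FPKM with shG9a. The uninduced lines held 98.5 and 93.6 FPKM of RRAS, so the SP2509 level was above vehicle but below both of them. The exchange factor SOS1 fell from 13.7 to 4.10 FPKM with SP2509.

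Transcripts outside the 10 that are known to be induced by ERK were called higher more often than lower with each inhibitor. This list too was chosen with earlier results known, so it is not independent of the 10 genes. Of all genes tested, 18.2%, 15.8% and 29.0% were called higher with SP2509, UNC0642 and both, and 37.5%, 14.0% and 29.1% lower. With Dox, 22.7% and 30.0% of all genes were called higher in the shLSD1 and shG9a lines, and 10.4% and 15.8% lower. Of 19 such genes, SP2509 raised 11 and lowered 2 of 16 tested, UNC0642 raised 14 and lowered 2 of 18, and the combination raised 16 and lowered 1 of 19. Dox raised 4 and lowered 7 of 16 in the shLSD1 line and raised 2 and lowered 12 of 16 in the shG9a line. Their median log2 changes were 1.55, 1.09, 1.39, -0.30 and -1.65. FOSL1, an AP-1 subunit, was 6.19 FPKM in vehicle, 132 with SP2509, 78.9 with UNC0642 and 148 with both, and it fell from 39.3 to 5.33 FPKM with shLSD1 and from 32.1 to 1.07 FPKM with shG9a. FOS, an immediate early AP-1 subunit, fell from 82.3 to 5.96 and from 83.4 to 2.60 FPKM in the same lines. Like DUSP5, FOSL1 was thus lower in vehicle than in either uninduced line. The same held for FOS, at 6.11 FPKM in vehicle, and for IER3, DUSP1, ERRFI1 and ETS2, whose levels are given below, though not for every gene of the lists. FOS was 26.9 FPKM with SP2509, 29.8 with UNC0642 and 27.5 with both, above vehicle but below both uninduced lines. With UNC0642, the levels of DUSP1, ERRFI1 and ETS2 likewise lay above vehicle but below both uninduced lines. IER3, an early response gene, rose from 48.3 to 270.1 FPKM with UNC0642 and fell with Dox in both lines, from 170.5 to 42.7 FPKM and from 192 to 31.0 FPKM. PLAUR, the urokinase receptor, rose from 1.73 to 24.9 FPKM with SP2509, and EPHA2, an ephrin receptor, from 24.6 to 173 FPKM. With both inhibitors HBEGF, an EGF-family ligand, rose from 2.96 to 75.0 FPKM, and the cytokine IL11 from 2 to 1085 reads.

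The other MAPK phosphatases and feedback genes were smaller lists. Of 6 further MAPK phosphatases, SP2509 raised 4 and lowered none, UNC0642 raised 4 and lowered 1, the combination raised 5 and lowered none, shLSD1 raised 2 and lowered 2, and shG9a raised none and lowered 3. DUSP1, a nuclear phosphatase induced by growth factors and stress, was 4.52 FPKM in vehicle, 115 with SP2509, 31.1 with UNC0642 and 110 with both, and it fell from 32.9 to 8.57 FPKM with shLSD1 and from 37.1 to 4.80 FPKM with shG9a. DUSP10, which acts mainly on p38 and JNK, was 1.73, 17.5, 7.92 and 23.9 FPKM in the inhibitor arm and fell with Dox in both lines. Of 7 tested paralogs and other feedback genes, 2, 2 and 3 were raised and 2, 0 and 1 lowered with SP2509, UNC0642 and both, and 1 and 0 were raised and 2 and 4 lowered with shLSD1 and shG9a. The gene of that list with the largest change in each comparison was ERRFI1, an inhibitor of EGFR, which was 30.1, 170 and 89.2 FPKM with vehicle, SP2509 and UNC0642, and fell from 105 to 9.54 and from 96.3 to 5.30 FPKM in the silenced lines.

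Receptors and effectors completed the pathway. Among 10 growth factor receptors, SP2509 raised 2 and lowered 5 of 8 tested, UNC0642 raised 2 and lowered 2 of 8, the combination raised 1 and lowered 5 of 9, shLSD1 raised 2 and lowered 1 of 9, and shG9a raised 4 and lowered 1 of 8. EGFR rose from 37.1 to 70.3 FPKM with SP2509 and fell with Dox from 35.1 to 12.3 FPKM and from 30.0 to 11.8 FPKM, whereas ERBB3 fell from 7.94 to 2.40 FPKM with SP2509 and rose from 7.62 to 16.8 and from 7.75 to 24.2 FPKM in the silenced lines. EGFR and ERBB3 thus moved in opposite directions in each of these 3 comparisons. This was not seen with UNC0642, where both genes lay below vehicle, EGFR at 34.1 FPKM and ERBB3 at 5.89 FPKM. With both inhibitors EGFR was lower than in vehicle, at 23.03 FPKM, and ERBB3 was nearly unchanged, at 7.999 FPKM. Of 14 kinases and transcription factors downstream of ERK, SP2509 raised 5 and lowered 4, UNC0642 raised 4 and lowered none of 13, the combination raised 6 and lowered none of 13, shLSD1 raised 1 and lowered 5 of 13, and shG9a raised 1 and lowered 6 of 13. ETS2, an ETS factor phosphorylated by ERK, rose from 44.8 to 199 FPKM with SP2509 and to 115 FPKM with UNC0642, and fell from 130 to 55.5 FPKM with shLSD1 and from 126 to 40.3 FPKM with shG9a. MKNK2, a kinase of the translation factor eIF4E, fell from 299 to 71.7 and from 271 to 55.6 FPKM in the silenced lines. In the inhibitor arm it was 48.4 FPKM in vehicle, 18.8 with SP2509, 50.5 with UNC0642 and 53.7 with both. Vehicle thus held less MKNK2 than either line with or without Dox.

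**Figure D4:**
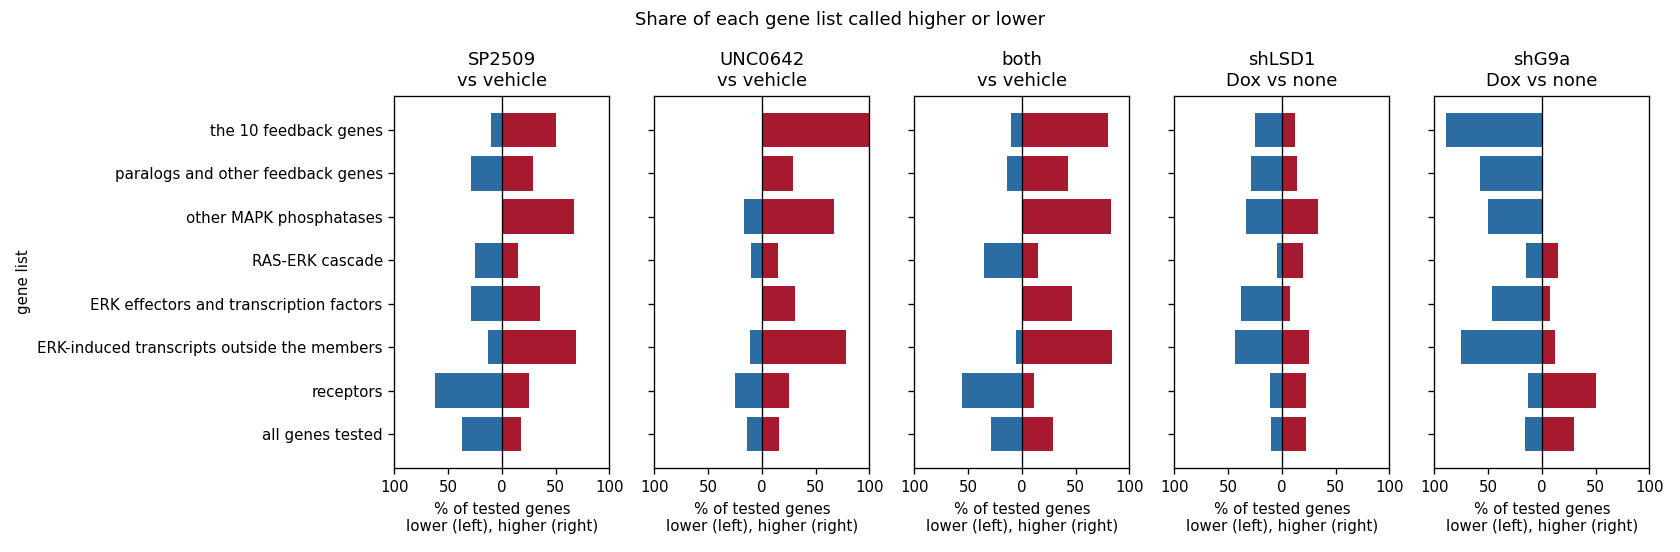
Percentage of the tested genes of each list called higher (red, to the right) or lower (blue, to the left) in the 5 comparisons, with the 10 feedback genes at the top and all genes tested at the bottom. The feedback genes and the ERK-induced transcripts extend further to the right than to the left with the inhibitors, and further to the left in the shG9a line. The ERK-induced transcripts and the RAS-ERK cascade both hold calls on either side in all 5 comparisons.

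The genes whose pattern was most like that of DUSP6 were ranked by the Euclidean distance of their 5 log2 changes from those of DUSP6, over 7013 genes with at least 5 FPKM in at least 1 library of each table. The nearest were TGFA, an EGFR ligand (distance 1.33), DUSP4 (1.38), PLAUR (1.44), DUSP10 (1.67) and the integrin subunit ITGA2 (1.69). TGFA was 3.87 FPKM in vehicle, 20.6 with SP2509, 19.2 with UNC0642 and 28.8 with both, and went from 8.89 to 6.39 FPKM with shLSD1 and from 8.45 to 2.99 FPKM with shG9a. Among the 10 genes, DUSP4 ranked 2, DUSP5 80, ETV4 367, SPRED2 894 and SPRY1 3754, and the other 4 did not reach the FPKM limit. The ranking covers 5 changes, of which 3 share the vehicle library. It used FPKM + 1, and DUSP6 itself reached only 2.23 FPKM in the shRNA lines, below the limit set for the ranked genes. Its change in the shG9a line was -1.43 on that scale and that of DUSP4 was -2.52, although both fell 11.2-fold on FPKM. The order thus depends on the pseudocount.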

How the data were processed

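Kyse510 RNA was read from both ends (150 bases each), and the authors mapped it to the human genome (GRCh38 in the submitters' processing notes) and deposited FPKM values in 2 tables, 1 per arm, with 31582 genes for the inhibitors and 28942 for the shRNA lines. The aligner, the counting tool and the strand setting are not given in the sources used here. Per the labels, each of the 8 conditions is 1 library.

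Library totals were recovered from the steps of the FPKM values in single-exon genes, with GENCODE release 44 for lengths, and reads per gene were taken at a length that makes all values of the gene whole. The lengths allowed were multiples of up to 4 times the smallest and up to 1.3 times the reference. The estimated reads made up 99.59% to 99.78% of the totals. Tested on simulated data, the procedure recovered 4 of 4 totals in each table. It called 100 of 100 genes raised and 100 of 100 lowered 2-fold for SP2509 against vehicle (23704 genes), and 99 and 99 of 100 for shLSD1 (23205 genes). The changed genes were drawn from those of at least 5 FPKM in the control library. The check of calls therefore does not cover lower levels, such as those of DUSP6, SPRY2 and SPRY4 in vehicle. Simulated reads were drawn from the estimated totals and lengths with counting noise only, and false calls were not counted. The check thus cannot show that those estimates are right, and it does not cover spread between libraries.

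Each treated library was compared with its own control with a pseudocount of 1. Genes named are the 10 feedback genes, the silenced targets, up to 3 called genes with the largest change per pathway list and comparison, and the 5 genes nearest to DUSP6. Cell type markers and a gene overlapping ETV4 were named as checks. The members and lists were chosen with earlier results of these data known. Alternatives were pseudocounts of 0.1 and 0.01, no filter, a minimum of 5 FPKM, a fold of 2, no read test, Benjamini-Hochberg adjusted p, median centring, protein-coding genes only, the fewest whole reads per gene and a control averaged over the uninduced lines. The mean of the 3 untreated libraries as control was added after the data were seen. Scripts used Python 3.11.15, pandas 2.3.3, scipy 1.17.1 and matplotlib 3.10.9. Intervals cover counting error only.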

Additional observations from a re-analysis of the deposited data

Results flagged for a closer look

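With 1 library per condition, results are given here where a gene was called in opposite directions in related comparisons, and none of the differences was tested. UNC0642 and Dox in the shG9a line act on the same enzyme, and the log2 change with UNC0642 minus that with Dox was 4.75 for DUSP4, 5.004 for DUSP5, 4.37 for DUSP6, 2.22 for SPRY1, 1.39 for SPRED1, 1.09 for SPRED2, 1.87 for ETV4 and 1.76 for ETV5. All 8 genes were higher with UNC0642 and lower with Dox. Since UNC0642 raised all 10 feedback genes, these opposite calls follow from the calls with Dox. The differences in this section are of log2 changes of FPKM + 1, which shrinks changes at low levels, so they do not rank the genes by ratio. On FPKM, DUSP6 was 12.2-fold higher with UNC0642 and 11.2-fold lower with Dox, and ETV5 was 1.97-fold higher and 21.6-fold lower. SP2509 and Dox in the shLSD1 line differed by 6.05 in DUSP5, which was higher with SP2509 and lower with Dox. Between the silenced lines, SPRED2 was higher with shLSD1 and lower with shG9a, with a difference of 1.02. Within the inhibitor arm, where the comparisons share vehicle, SPRED1 was lower with SP2509 and higher with UNC0642, a difference of 1.22, and higher with both inhibitors, a difference of 1.43 from SP2509. SPRY1 was higher with UNC0642 and lower with both inhibitors, a difference of 1.26. Vehicle and the uninduced lines differed in DUSP5 and ETV5 before any treatment, and the part of that difference in these results was not tested.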

How the results depend on the processing

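No paired analysis was possible because each condition has 1 library. Of 484 recomputed log2 changes of the 10 genes, 454 kept direction and call, 17 lost and 9 gained the call, and 4 turned in direction. A gene that fell under the filter of a setting was left out, so its lost call is not among the 17. Settings that altered only the filter, the fold threshold, the gene set or the read test left the log2 change itself the same. In those settings no direction could turn. SPRY2 in the shLSD1 line, not called, turned with median centring (-0.0048). The other changes of direction came from the mean of the 3 untreated libraries as control, chosen after seeing the data. They were ETV5 with SP2509 (0.47), DUSP5 with UNC0642 (-0.32) and SPRY1 with UNC0642 (-0.024). The same control gave 2 lower calls with SP2509, where 4721 of 12951 genes were lower. A minimum of 5 FPKM left 3 higher and 0 lower calls with SP2509, 0 lower with both inhibitors, 1 lower with shLSD1 and 5 lower with shG9a, since fewer genes were tested. Of all genes at that minimum, SP2509 gave 1595 higher and 2806 lower of 7620, and both inhibitors 2415 lower of 7960. Dox gave 866 lower of 7252 with shLSD1 and 1364 lower of 7445 with shG9a. A fold of 2 left 0 lower with SP2509, 5 higher with UNC0642, 0 lower with both, 0 higher and 1 lower with shLSD1 and 4 lower with shG9a. Calls over all genes fell too at that fold. SP2509 gave 1608 lower of 13342 genes, UNC0642 511 higher of 13244 and both inhibitors 1181 lower of 13907. Dox gave 346 higher and 326 lower of 12970 with shLSD1 and 693 lower of 13080 with shG9a. Median centring, and using the uninduced libraries' mean as control, each left 0 higher with shLSD1. Over all genes, these settings gave 2005 higher of 12970 and 3080 higher of 12864. The other counts of calls stayed within 1.5 times. Depth limits SPRY4, ETV5 and SPRY2 in the silenced lines, where libraries held as few as 5 reads of SPRY4 and ETV5.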
